A study of Mus musculus with 6 samples.

Results

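The miR-23, miR-27 and miR-24 families of the mouse are made from a pair of short genomic clusters, one on chromosome 8 (miR-23a, miR-27a and miR-24-2) and one on chromosome 13 (miR-23b, miR-27b and miR-24-1). The 10 mature miRNAs that name their cluster of origin were taken by name from a table of 1522 miRNAs, 5 from each cluster, and all 10 were found. Small RNA had been sequenced from hippocampal neural stem cells (NSCs), which divide and give rise to neurons and glia, of male mice of the C57BL/6J strain on postnatal day 3. In the exposed group, called GDE (gestational dexamethasone-exposed) here and IUGR in the library titles, pregnant dams had received dexamethasone, a synthetic glucocorticoid, into the peritoneum at 1 mg/kg daily between E14.5 and E18.5 (embryonic days). Dams of the Control group, titled Normal, had received normal saline on the same days. Each group had 3 libraries, from independent litters according to the design text, and the sources used here do not say whether pups of a litter were pooled. In every library the 5 chromosome 8 miRNAs together gave more tags than the 5 of chromosome 13, 4.16 to 5.16 times as many. The 5p arm of miR-23 was the exception to this order. These sums leave out miR-24-3p, which both clusters give. No member passed the threshold between GDE and Control in limma (0 of 10, where 0.308% of all tested miRNAs passed).

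The clusters are copies of each other, and each is transcribed as 1 primary transcript that is cut into its hairpins. A hairpin yields a 3p and a 5p arm, of which the 3p arm is the usual guide strand of this family and the 5p arm is mostly discarded. miR-23 is known to repress glutaminase, miR-27 to repress regulators of fat cell formation such as Pparg, and miR-24 to restrain cell cycle and DNA repair genes. In brain, miR-23 has been linked to astroglia, and the clusters are also abundant in endothelial cells and are found in blood cells.

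On chromosome 8 of GRCm38 (the assembly called mm10), Mir23a lies at 84208518 to 84208592, Mir27a at 84208672 to 84208758 and Mir24-2 at 84208815 to 84208921, all on the plus strand, so that the cluster spans 404 bases. No gene of GENCODE M21 other than miRNAs covers these hairpins, and the lincRNA Gm26532 begins at 84208920, at the end of Mir24-2. On chromosome 13, Mir23b lies at 63300484 to 63300557, Mir27b at 63300712 to 63300784 and Mir24-1 at 63301208 to 63301275, also on the plus strand, over 792 bases. This cluster sits within the protein-coding gene 2010111I01Rik on the same strand. Mir23b was intronic in 9 of the 9 transcripts that span it, Mir27b in 8 of 9 and Mir24-1 in 7 of 8, while the opposite strand carries an intron of Fancc.

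**Figure D1:**
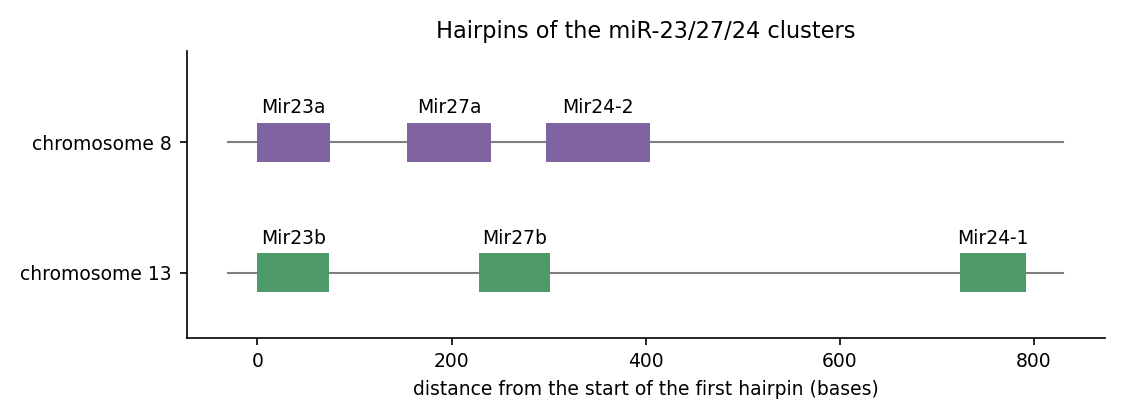
Hairpins of both clusters, drawn to scale as boxes against the distance in bases from the start of the first hairpin. The chromosome 8 cluster spans 404 bases and the chromosome 13 cluster 792, with the same order of hairpins in both.

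The mature sequences are shown because they set which tags can be assigned to 1 cluster. Capitals mark the seed, bases 2 to 8 from the 5′ end, which pairs with target mRNAs. RefSeq (GRCm38.p6) gave a sequence for 9 of the 10 miRNAs; mmu-miR-23b-3p is the other (mmu- stands for mouse and is left out below). The arms that come first are from chromosome 8:
mmu-miR-23a-3p: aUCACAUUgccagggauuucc
mmu-miR-27a-3p: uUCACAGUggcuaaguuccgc
mmu-miR-23a-5p: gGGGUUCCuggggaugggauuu
mmu-miR-27a-5p: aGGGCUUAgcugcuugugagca
mmu-miR-24-2-5p: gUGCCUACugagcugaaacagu
The arms from chromosome 13 follow:
mmu-miR-27b-3p: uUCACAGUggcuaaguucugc
mmu-miR-23b-5p: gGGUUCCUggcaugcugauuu
mmu-miR-27b-5p: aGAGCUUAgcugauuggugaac
mmu-miR-24-1-5p: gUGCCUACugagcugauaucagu
The 3p arm of miR-24 is the same from both clusters and so belongs to neither list:
mmu-miR-24-3p: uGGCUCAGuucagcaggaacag

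miR-27a-3p and miR-27b-3p share their seed and differ by the single substitution C19U, with miR-27a-3p as the reference and positions counted from its 5′ end. A tag that ends before this base cannot be given to one of them, and the sources used here do not say how such tags were assigned. Without a sequence for miR-23b-3p, it was not checked which tags can tell it from miR-23a-3p. The ratios and shares of miR-23a-3p and miR-23b-3p given below may carry the same limit. miR-24-2-5p and miR-24-1-5p share the seed and the first 16 bases. miR-27a-5p and miR-27b-5p differ at 8 of 22 positions when set base by base, and their seeds differ. miR-23a-5p and miR-23b-5p share a run of 10 bases that begins 1 base later in miR-23a-5p, so that their seeds differ by this shift.

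Levels are in RPM, tags divided by the total of their library and scaled. They rest on about 11751322 to 12384958 tags per library, of which 2927136 to 3343808 were in the table. miR-9-5p, a miRNA of neural progenitors, stood at 8154 to 8831 RPM over the 6 libraries, and the neuronal miR-124-3p at 182 to 283 RPM. Markers of other cells were present in all libraries. Over 10 endothelial and mural miRNAs the summed level was 395 to 627 RPM in GDE and 369 to 452 RPM in Control, and miR-126a-3p, which defines endothelium, stood at 247 to 448 and 221 to 330 RPM. Over 8 miRNAs of microglia and leukocytes the sums were 6285 to 7442 and 6521 to 7289 RPM, with the myeloid miR-223-3p at 66.7 to 96.0 and 16.1 to 54.3 RPM. These sums were thus far above miR-223-3p, and the list shares miR-146a-5p with a list of astroglial miRNAs. They are therefore not a measure of leukocytes alone. Over 5 erythroid miRNAs the sums were 88.1 to 111.6 and 48.8 to 84.4 RPM, with miR-451a at 58.4 to 74.1 and 20.8 to 52.8 RPM. The endothelial and erythroid lists each hold 2 miRNAs with identical values, so their sums count the same tags for both. miR-223-3p and miR-451a were higher in every GDE library than in any Control library, as were 30 of the 649 tested miRNAs, or 4.62%. In limma 6 of the 8 microglial miRNAs were higher in GDE and 2 lower, and the 3 tested erythroid ones were higher. Of both lists 0 passed the threshold. The part of these cells in any value below was not tested. In such bulk RNA, fewer cells of a type and less RNA per cell cannot be told apart.

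The 3p arms of the chromosome 8 cluster were the most abundant of the 10 miRNAs. miR-23a-3p was at 3164, 2898 and 2462 RPM in GDE replicates 1, 2 and 3, and at 2909, 3321 and 2729 RPM in Control replicates 1, 2 and 3. The lowest library was a GDE and the highest a Control library, and the groups overlapped. Mean levels were 2841 ± 354 RPM for GDE and 2986 ± 303 RPM for Control (SD, n = 3 each), and miR-23a-3p ranked 25 among all miRNAs of the table by its mean. The log2 fold, taken as GDE minus Control on log2(RPM + 1) here and in all that follows, was -0.07 (SE 0.12), with a 95% interval in limma of -0.35 to 0.20. miR-27a-3p was at 2464, 2586 and 2562 RPM in GDE and at 2856, 2564 and 2600.2 RPM in Control. These are among the steadiest values of the 10, with a log2 SD within groups of 0.07, where the median was 0.28 over all 649 tested miRNAs. Control replicate 1 was the highest, and the groups overlapped. The log2 fold of miR-27a-3p was -0.07 (SE 0.08), with an interval of -0.26 to 0.12, so that the fit was compatible with levels in GDE between 0.833 and 1.08 times those of Control.

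The same arms of the chromosome 13 cluster were next in order. miR-23b-3p was at 876, 901 and 802 RPM in GDE and at 759, 879 and 732 RPM in Control. Control replicate 2 lay among the GDE values and the other Control libraries below them. The log2 fold was 0.12 (SE 0.13), with an interval of -0.17 to 0.42. miR-27b-3p was at 422, 457 and 418.6 RPM in GDE and at 394, 409 and 418.7 RPM in Control, so the groups met at GDE replicate 3 and Control replicate 3. Its log2 fold was 0.09 (SE 0.14), with an interval of -0.23 to 0.41. Its log2 SD within groups was again low, at 0.06.

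The 5p arms of miR-23 and miR-27 were far lower than the 3p arms of their hairpins. The 3p arm of miR-24 is shared by both clusters, so the part that each miR-24 hairpin gives is not known. miR-24-2-5p, from chromosome 8, was at 226, 205 and 164 RPM in GDE and at 224, 167 and 260.3 RPM in Control. Each group held 1 library at or below 167 RPM, and the log2 fold was -0.12 (SE 0.23, interval -0.65 to 0.41). miR-24-1-5p, its counterpart from chromosome 13, was at 3.17, 5.25 and 2.89 RPM in GDE and at 2.66, 3.07 and 4.00 RPM in Control. The groups overlapped, and its log2 fold was 0.15 (SE 0.25, interval -0.43 to 0.72). These values of miR-24-1-5p rest on 32 to 62 tags per library. miR-27a-5p was at 52.9, 35.6 and 56.1 RPM in GDE and at 70.8, 53.8 and 49.3 RPM in Control. Its lowest library was GDE replicate 2 and its highest Control replicate 1, with a log2 fold of -0.27 (SE 0.26, interval -0.87 to 0.33). miR-27b-5p was at 4.09, 6.09 and 6.18 RPM in GDE and at 6.32, 5.65 and 4.425 RPM in Control, and its log2 fold was -0.01 (SE 0.23, interval -0.53 to 0.52).

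The 5p arms of miR-23 were among the less abundant miRNAs, and their means were lower in GDE. miR-23b-5p was at 9.43, 7.62 and 9.98 RPM in GDE and at 12.5, 10.3 and 11.9 RPM in Control. The groups did not overlap, with all GDE libraries below all Control libraries, as was the case for 65 of the 649 tested miRNAs, or 10.0%. The log2 fold of miR-23b-5p was -0.33 (SE 0.20), with an interval of -0.79 to 0.14, and p was 0.1 by exact permutation (two-sided), the lowest value within reach of 3 against 3 libraries. miR-23a-5p, the rarest of the 10, was at 1.42, 1.02 and 1.40 RPM in GDE and at 2.91, 1.29 and 1.87 RPM in Control. The groups overlapped through Control replicate 2, and the values rest on 12 to 35 tags per library. Its log2 fold was -0.38 (SE 0.24, interval -0.94 to 0.19).

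**Figure D2:**
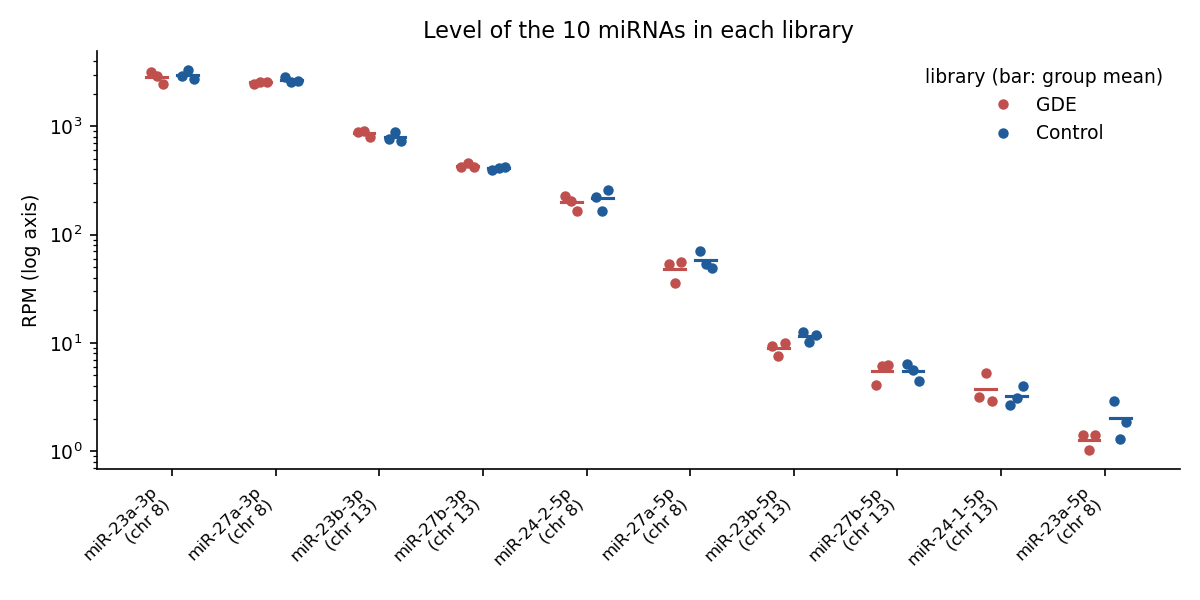
RPM on a log axis for each of the 10 miRNAs, ordered by mean level, with 1 point per library and a bar at the mean of the 3 GDE or the 3 Control libraries. miR-23a-3p and miR-27a-3p lead with overlapping groups, and miR-23b-5p is the miRNA whose groups do not overlap.

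In this order of mean levels most neighbours were clearly apart. The order came from the same 6 libraries as the tests, so the p values below describe it and give it no independent support. miR-23a-3p exceeded miR-27a-3p in 5 of 6 libraries, a difference not past the threshold (exact two-sided sign-flip permutation test, p = 0.0938). From miR-27a-3p down to miR-27b-5p, each miRNA was above the next in 6 of 6 libraries, with ranges that did not overlap (p = 0.0312 for each step in the same exact test, the smallest that 6 libraries allow). The ranges of miR-27b-5p and miR-24-1-5p overlapped, although miR-27b-5p was the higher in 6 of 6 libraries (exact p = 0.0312). miR-24-1-5p exceeded miR-23a-5p in 5 of 6 libraries (exact p = 0.0625). Levels of different miRNAs also carry the differing ease with which adaptors join to each sequence, so their order describes tags rather than molecules.

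None of the 10 miRNAs differed between GDE and Control by limma with an adjusted p under 0.05. Over all 649 tested miRNAs 2 passed, or 0.308%, and 56 had an unadjusted p under 0.05. All 10 miRNAs had passed the filter for low values. Their adjusted p in limma lay between 0.626 and 0.995, their unadjusted p were all above 0.05, and over every alternative fit, edgeR, DESeq2 and limma-voom included, the lowest adjusted p was 0.587. Of the 10 log2 folds 3 were positive and 7 negative, with a median of -0.07, which is also the median of all 649 tested miRNAs (252 positive and 397 negative). All 5 log2 folds of the chromosome 8 cluster were negative, with a median of -0.12, but those of miR-23a-3p and miR-27a-3p turned positive with edgeR, DESeq2, limma-voom and TMM scaling. On chromosome 13, 3 were positive and 2 negative, with a median of 0.09, and miR-27b-5p changed its sign with the scaling too.

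**Figure D3:**
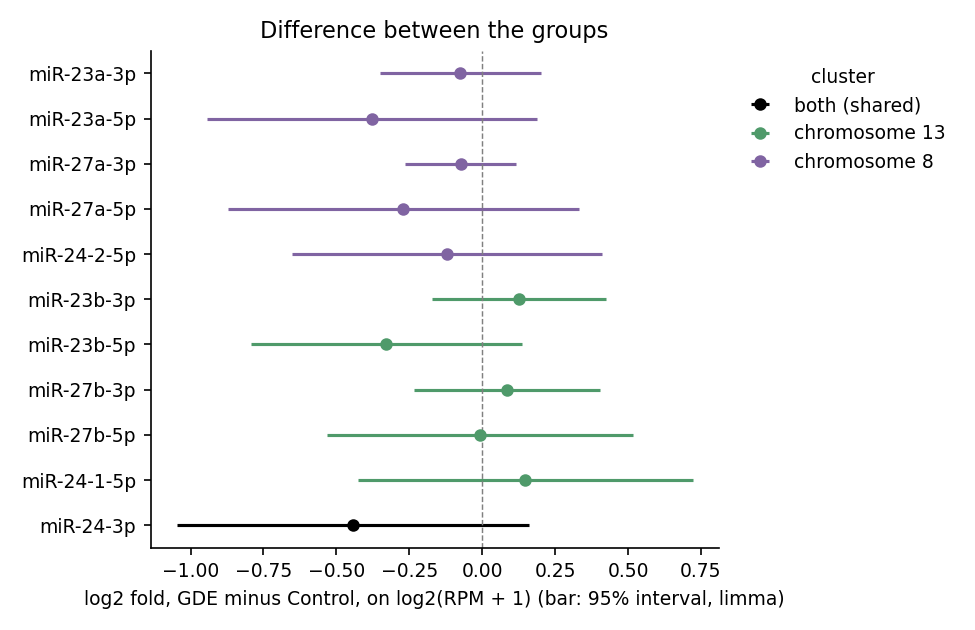
Log2 fold, GDE minus Control, on log2(RPM + 1) with its 95% interval in limma, coloured by cluster, with the shared miR-24-3p at the bottom. Every interval includes 0, and the intervals are narrowest for miR-27a-3p and widest for miR-24-3p.

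miR-24-3p, the arm that both clusters give, was at 2616, 1886 and 1354 RPM in GDE and at 1902, 3112 and 2841 RPM in Control. It varied more among libraries than the other abundant 3p arms, with a log2 SD within groups of 0.43, and its groups overlapped. The log2 fold was -0.44 (SE 0.26, interval -1.05 to 0.16; limma, adjusted p = 0.618, and 0.459 to 0.907 over the alternatives). The 2 libraries at its ends, GDE replicate 3 and Control replicate 2, were also the lowest and the highest for miR-23a-3p. miR-128-3p, a neuronal miRNA whose seed overlaps that of miR-27 with a shift of 1 base (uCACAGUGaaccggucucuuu, seed in capitals), was at 594 ± 57.5 RPM in GDE against 659.9 ± 116 RPM for Control (limma, adjusted p = 0.821).

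The balance of the clusters was then compared within each library. The 5 chromosome 8 miRNAs summed to 5907, 5725 and 5245 RPM in GDE and to 6063, 6107 and 5641 RPM in Control, and the 5 chromosome 13 miRNAs to 1314, 1377 and 1239.6 RPM and to 1174, 1307 and 1171 RPM. The sum of the chromosome 8 cluster was thus 4.49, 4.16 and 4.23 times that of the chromosome 13 cluster in GDE and 5.16, 4.67 and 4.82 times in Control. The former was 2.17% to 2.41% of all tags in the table and the latter 0.423% to 0.530%. Both sums leave out miR-24-3p, which the clusters share and which was at 1354 to 3112 RPM over the libraries. The ratio therefore covers the arms that name their cluster and not the whole output of each cluster. A within-library ratio does not depend on the depth to which the values were scaled.

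In 4 of the 5 paralogue pairs the chromosome 8 member was the higher in 6 of 6 libraries. miR-23a-3p was 3.07 to 3.83 times miR-23b-3p, and miR-27a-3p was 5.65 to 7.24 times miR-27b-3p. Among the 5p arms, miR-27a-5p was 5.85 to 12.9 times miR-27b-5p and miR-24-2-5p was 39.0 to 84.2 times miR-24-1-5p. The miR-23-5p pair went the other way. There miR-23b-5p was 4.29 to 7.94 times miR-23a-5p, again in 6 of 6 libraries, although its 3p arm was the lower one. Each of these 5 differences had p = 0.0312 in the exact two-sided sign-flip permutation test over 6 libraries, the smallest it can give, so no adjustment over the 5 pairs would separate them. The mean log2 ratios of the chromosome 8 over the chromosome 13 member were 1.82 ± 0.13 for miR-23-3p, 2.63 ± 0.12 for miR-27-3p, 3.05 ± 0.37 for miR-27-5p, 5.54 ± 0.33 for miR-24-5p and -2.11 ± 0.17 for miR-23-5p (SD, n = 6).

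As a share of the tags of both paralogues, miR-23a-3p took 78.3%, 76.3% and 75.4% in GDE and 79.3%, 79.1% and 78.9% in Control. The 3 GDE libraries lay below the 3 Control libraries, and the 95% Wilson interval of GDE replicate 1, 78.0% to 78.7%, met that of Control replicate 3, 78.5% to 79.3%. Such intervals cover counting error only, and not any error in assigning tags to a paralogue. The log2 ratio was 1.72 ± 0.12 in GDE and 1.92 ± 0.02 in Control, a difference of -0.20 (exact two-sided permutation p = 0.1, the smallest possible). For miR-27a-3p the shares were 85.4%, 85.0% and 86.0% in GDE and 87.9%, 86.2% and 86.1% in Control. The groups did not overlap here either, but GDE replicate 3 (Wilson interval 85.6% to 86.3%) and Control replicate 3 (85.8% to 86.5%) were within counting error of each other. The log2 ratio was 2.55 ± 0.06 in GDE and 2.71 ± 0.12 in Control, a difference of -0.16 (exact permutation p = 0.1), which came to -0.09 without Control replicate 1.

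Both 3p pairs therefore had a lower chromosome 8 share in every GDE library than in any Control library. Among 45 pairs of tested miRNAs whose names differ only by the letters a and b, these 2 included, the groups did not overlap in 10, or 22.2%. GDE was the lower group in 3, or 6.67%, namely these 2 pairs and the 3p arms of miR-29a and miR-29b. Which member carries the letter a is a matter of naming, so this direction has no common meaning over the 45 pairs. This set of pairs was compiled after the ratios had been seen. For the 5p arms the groups overlapped in each pair. The differences of the mean log2 ratio were -0.26 for miR-27-5p (exact permutation p = 0.6), -0.27 for miR-24-5p (p = 0.5 in the same exact test) and -0.05 for miR-23-5p (exact p = 0.9). The share of miR-24-2-5p was 97.5% to 98.8%, that of miR-27a-5p 85.4% to 92.8% and that of miR-23a-5p 11.2% to 18.9% over the 6 libraries. The Wilson intervals of miR-23a-5p reached from 6.86% in GDE replicate 2 to 25.2% in Control replicate 1, so differences of a few percent were not detectable at this depth.

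**Figure D4:**
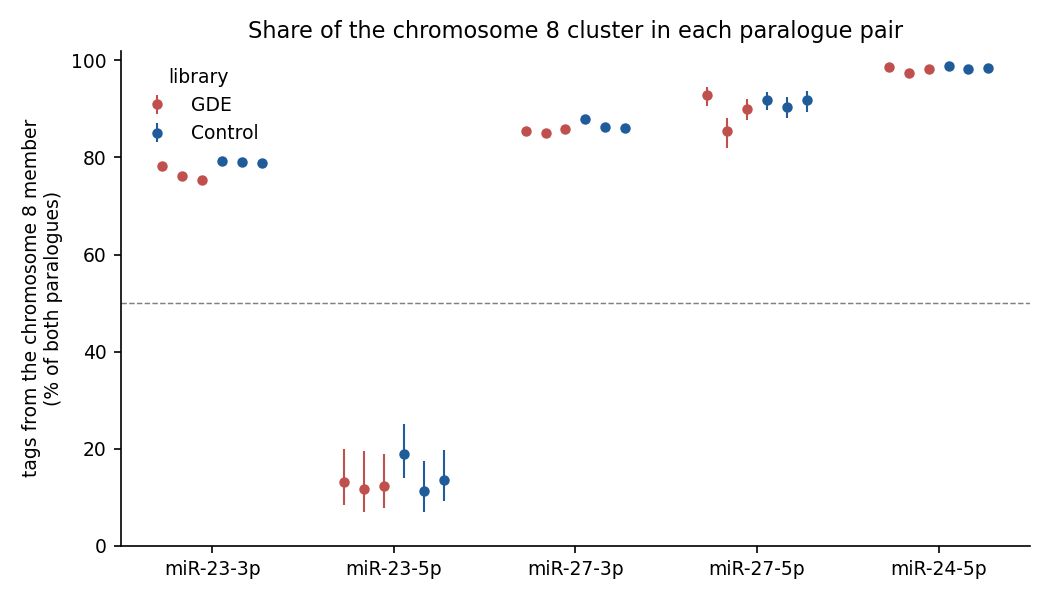
Tags of the chromosome 8 member as a percentage of the tags of both paralogues, for 5 pairs, with 1 point per library and its 95% Wilson interval; the dashed line marks equal shares. miR-23-5p is the pair that lies under the line, at 11.2% to 18.9%, and the GDE points of miR-23-3p and miR-27-3p lie under the Control points.

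The inverted miR-23-5p pair was followed to the arm ratios of the hairpins. The 3p arm of miR-23a was 1000.03 to 2852 times its 5p arm, while that of miR-23b was 60.9 to 118 times its 5p arm. The miR-27 hairpins lay near miR-23b, with 3p over 5p ratios of 40.3 to 72.6 for miR-27a and 62.4 to 103 for miR-27b. On the log2 scale the 5p over 3p ratio of miR-23a ran from -10.50 to -9.54 over the libraries, apart from the ranges of the other 3 hairpins, which lay between -6.71 and -5.31. With a pseudocount of 1 RPM these ratios understate the lack of miR-23a-5p, which is itself near 1 RPM. For miR-24 the 3p arm was 8.13 to 18.3 times the summed 5p arms, and Control replicate 2 was the highest.

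Arm usage did not differ detectably between the groups. In limma 0 of 155 hairpins passed at an adjusted p under 0.05, or 0%, and 9 had an unadjusted p under 0.05. The 5p over 3p log2 ratio of miR-23b was -6.39, -6.71 and -6.19 in GDE and -5.82, -6.29 and -5.83 in Control, with overlap through Control replicate 2. The difference was -0.45 (SE 0.23; limma, unadjusted p = 0.0899, adjusted p = 0.697, and 0.542 to 0.966 over the alternatives). The differences of the other hairpins were -0.30 for miR-23a (SE 0.29), -0.20 for miR-27a (SE 0.25) and -0.09 for miR-27b (SE 0.23), with adjusted p of 0.782, 0.903 and 0.950 in limma.

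**Figure D5:**
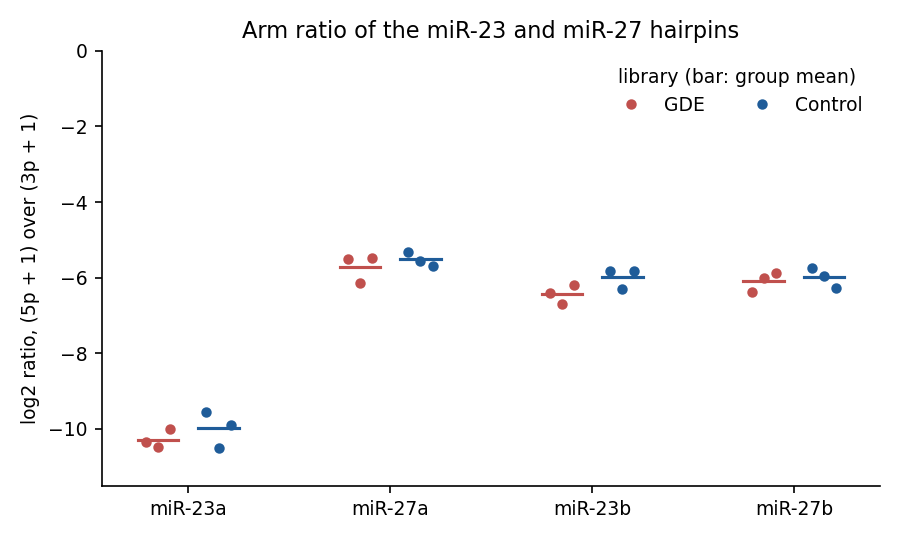
Log2 of 5p over 3p levels, each with 1 RPM added, for 4 hairpins, with 1 point per library and a bar at the group mean. miR-23a lies between -10.50 and -9.54 and the other hairpins between -6.71 and -5.31, with overlapping groups in each.

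The leading member of each cluster was set beside the other named miRNAs by the root mean square distance of log2(RPM + 1), each miRNA centred on its mean over the 6 libraries, among 552 tested candidates. Closest to miR-23a-3p were miR-1953 at a distance of 0.09, miR-30a-3p at 0.09 and miR-328-3p at 0.09, where miR-23a-3p itself moved by 0.14 about its mean. Closest to miR-23b-3p were miR-362-5p at 0.07, miR-328-3p at 0.08 and miR-350-3p at 0.08, with miR-23b-3p moving by 0.11. Among the 10 miRNAs, miR-27b-3p of the same cluster was nearest to miR-23b-3p, at 0.09, and miR-23b-3p was the nearest to miR-23a-3p, at 0.12. The arm of the neighbouring hairpin on chromosome 8, miR-27a-3p, was at 0.16 from miR-23a-3p, a distance larger than the movement of miR-23a-3p itself.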

How the data were processed

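The deposited table holds 1 column per library, and 0 further columns were left unmapped. The groups and replicate numbers were taken from the library titles. Per the labels' protocols, TRIzol served for RNA extraction and an MGIEasy small RNA kit for the libraries. Per the submitters' processing notes Bowtie2 and mm10 were used; the sources used here do not give trimming, molecular identifiers or the assignment of tags that match several miRNAs. The header calls the values expression, and they were read as RPM scaled by the authors to a total larger than the table. In each library 100% of the nonzero values were whole multiples of 1 step within 0.1 tags. Such steps show that tags were scaled but not to which total, so the depths rest on this reading.

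limma 3.58.1 (R 4.3.3) with a trend was fitted to log2(RPM + 1) of the 649 miRNAs with at least 1 RPM in 3 libraries, two-sided, with Benjamini-Hochberg adjustment at 0.05 over all of them, and to the arm ratios of 155 hairpins. Alternatives on whole tags were edgeR 4.0.16, which called 2 miRNAs, DESeq2 1.42.0 and limma-voom. Single values were tested by exact permutation in Python 3.11.15 with scipy 1.17.1. The fits were tested on simulated data. The 10 miRNAs, the marker lists and the tests were chosen with earlier results of these data known. Besides the 10, the miRNAs set to be named were miR-24-3p and miR-128-3p, the miRNAs that define a cell type and the 3 nearest to the leading member of each cluster. The 3p arms of miR-3074 and of miR-29a and miR-29b were named after values had been seen. A few further list members are named where rows or lists overlap. miR-23c was searched for by name and had no row here. The marker lists for neural progenitors, neurons, astroglia and oligodendrocytes had 0 members past the threshold in limma, as had the endothelial, microglial and erythroid lists. Log2 folds were negative for 8 of 8 neural progenitor, 3 of 10 neuronal, 4 of 8 astroglial and 0 of 4 oligodendrocyte miRNAs. The negative astroglial ones include miR-24-3p (-0.44), which both clusters give, and this list shares miR-146a-5p with the microglial list. Log2 folds were also negative for 2 of 9 endothelial, 2 of 8 microglial and 0 of 3 erythroid miRNAs, and for 397 of all 649 tested. The 2 endothelial ones, miR-199a-3p and miR-199b-3p, had identical fits (-0.15 each), as had miR-486a-5p and miR-486b-5p of the erythroid list (0.05 each). In both lists 1 measurement is therefore counted as 2 miRNAs. Replicates of a group differed by more than sampling noise (chi-square divided by its degrees of freedom, 47.1 to 173.1), and 0 rows were identical to 1 of the 10.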

Additional observations from a re-analysis of the deposited data

How the results depend on the processing

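No member passed the threshold under any alternative; of 157 member values, 136 kept their sign and 21 changed it. The number of miRNAs called, 2, became 5 in DESeq2 (4 higher and 1 lower in GDE), 1 in limma-voom and 1 with at least 10 RPM in 3 libraries, and 2 to 3 without any 1 library. The log2 fold of miR-23a-3p was 0.020 in edgeR, 0.013 in DESeq2, 0.032 in limma-voom and 0.015 with TMM scaling, and that of miR-27a-3p 0.030, 0.024, 0.029 and 0.016. For miR-27b-5p it was 0.11 in edgeR, 0.11 in DESeq2, 0.085 in limma-voom, 0.071 with TMM scaling and 0.043 scaled to the table. Leaving out 1 library in turn gave -0.16 to 0.025 for miR-23a-3p, -0.30 to 0.022 for miR-24-2-5p, -0.13 to 0.15 for miR-27b-5p and -0.063 to 0.28 for miR-24-1-5p, and arm ratio differences of -0.31 to 0.017 for miR-27a and -0.23 to 0.051 for miR-27b. With the sign kept, it gave -0.56 to -0.18 for miR-23a-5p, -0.39 to -0.07 for miR-27a-5p, -0.10 to -0.03 for miR-27a-3p, 0.07 to 0.20 for miR-23b-3p, 0.04 to 0.11 for miR-27b-3p, -0.68 to -0.21 for miR-24-3p, -0.57 to -0.08 for the miR-23a arm ratio and -0.45 to -0.09 for the miR-24-5p paralogue ratio. The difference of the miR-23-5p paralogue ratio was 0.091 with a pseudocount of 10 and -0.16 to 0.10 without 1 library, and that of miR-27-5p -0.50 to 0.015. For miR-23-3p it stayed negative, at -0.27 to -0.15, and for miR-27-3p at -0.20 to -0.09. The ratios within libraries were 1.79 to 1.86 (miR-23-3p), -2.17 to -2.07 (miR-23-5p), 2.58 to 2.66 (miR-27-3p), 2.98 to 3.19 (miR-27-5p) and 5.46 to 5.64 (miR-24-5p) without 1 library, where 5 libraries allow no p under 0.0625 in the exact sign-flip test. With a pseudocount of 10 the ratios of the low 5p arms shrank, to -0.80 for miR-23-5p, 2.01 for miR-27-5p and 3.99 for miR-24-5p. By arithmetic, a larger pseudocount shrinks ratios of low values, and 5 libraries raise the smallest sign-flip p. The median log2 fold of all tested miRNAs was -0.067 in the main fit and 0.0057 with TMM scaling. It was -0.0022 in edgeR, -0.0064 in DESeq2 and 0.032 in limma-voom. The cause of the other changes was not tested.

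The library titles do not say whether shared replicate numbers pair the samples. Same-numbered libraries deviated with correlations of -0.12 to -0.03, and libraries of different number with -0.07 to 0.15. Such values do not settle whether same-numbered libraries belong together. With a replicate block 2 miRNAs were called, and the miR-23-3p and miR-27-3p ratio differences stayed at -0.20 and -0.16 (exact sign-flip p = 0.25 each). A count of 0 tags allows up to 3 tags, or 0.255 RPM, and the lowest member rests on as few as 12 tags.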

Other observations

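Both miR-24 hairpins have a miRNA gene on the opposite strand, Mir3074-2 across from Mir24-2 and Mir3074-1 across from Mir24-1, whose 3p arms also name their cluster. These rows were chosen after their values had been seen. miR-3074-2-3p, from chromosome 8, was at 55.3, 53.0 and 35.2 RPM in GDE and at 55.1, 37.1 and 50.2 RPM in Control. miR-3074-1-3p, from chromosome 13, was at 9.85, 8.80 and 8.66 RPM in GDE and at 11.9, 9.77 and 9.96 RPM in Control. The ratio of the former over the latter was 5.62, 6.02 and 4.07 in GDE and 4.64, 3.80 and 5.04 in Control, with overlapping groups, and GDE was not the lower group here as it was for the 3p arms of miR-23 and miR-27. The log2 folds of GDE over Control were 0.00 (SE 0.27) for miR-3074-2-3p and -0.19 (SE 0.19) for miR-3074-1-3p (limma, adjusted p = 0.995 and 0.787).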
